A study of Mus musculus with 2 samples.

Results

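The genes described here encode enzymes and the helper protein that turn membrane arachidonic acid into prostaglandins and leukotrienes. They were chosen by symbol and not by a rule on measured values, though with earlier results of these data known. They are Pla2g4a, Ptgs1, Ptgs2, Hpgds, Ptgds, Ptges, Alox5, Alox5ap and Ltc4s. All 9 are in the deposited matrix of 32285 genes, and each symbol has 1 row there. Their levels were described in macrophages, fibroblasts and mast cells, and by MULTI-seq tag. The study cultured macrophage colony-forming units (CFU-M) from the dorsal aorta of 2 male C57BL/6J mice aged 12 weeks, with no genetic change or treatment named. Freed aortic cells grew for 14 days in methylcellulose, and living cells of the colonies were sorted by dye exclusion and sequenced as single cells in droplets. Each suspension had been marked with a lipid-anchored MULTI-seq oligonucleotide before pooling, and the matrix carries 3 such tags, named Cafum, Matrigel and Macrophages. What these names stand for is not in the labels, which list 1 expression library that pools the cells of both mice.

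Arachidonic acid is cut from membrane phospholipids by cytosolic phospholipase A2 (Pla2g4a) and then follows either of a pair of routes. Cyclooxygenases (Ptgs1 and Ptgs2) make prostaglandin H2, which terminal synthases turn into prostaglandin D2 (Hpgds, Ptgds) or prostaglandin E2 (Ptges). On the other route 5-lipoxygenase (Alox5), helped by the membrane protein FLAP (Alox5ap), makes leukotriene A4, to which Ltc4s adds glutathione. Activated mast cells are known as sources of prostaglandin D2 and leukotriene C4, and macrophages and fibroblasts as sources of prostaglandin E2.

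RefSeq's promoter table (build GRCm38.p6) held 8 of the 9 genes. The 250 bases before the start site are shown for 4 genes, chosen after their values were seen to stand for the classes below, Alox5 as highest in mast cell-like, Hpgds and Ltc4s as highest in macrophage-like and Ptges as highest in fibroblast-like cells: Alox5 at chr6:116461179-116461428, Hpgds at chr6:65144731-65144980, Ltc4s at chr11:50238533-50238782 and Ptges at chr2:30903298-30903547, all on the minus strand. Letters run 5′ to 3′ toward the start site, and capitals mark a match of a searched motif.
Alox5: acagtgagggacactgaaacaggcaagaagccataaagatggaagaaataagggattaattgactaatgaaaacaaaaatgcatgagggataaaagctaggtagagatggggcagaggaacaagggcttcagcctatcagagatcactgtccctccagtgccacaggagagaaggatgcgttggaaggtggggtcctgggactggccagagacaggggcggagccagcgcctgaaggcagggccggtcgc
Hpgds: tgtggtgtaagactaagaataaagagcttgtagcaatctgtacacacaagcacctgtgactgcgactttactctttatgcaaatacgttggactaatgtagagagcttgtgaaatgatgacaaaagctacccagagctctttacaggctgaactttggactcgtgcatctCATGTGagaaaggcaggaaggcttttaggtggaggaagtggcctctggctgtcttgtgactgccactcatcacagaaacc
Ltc4s: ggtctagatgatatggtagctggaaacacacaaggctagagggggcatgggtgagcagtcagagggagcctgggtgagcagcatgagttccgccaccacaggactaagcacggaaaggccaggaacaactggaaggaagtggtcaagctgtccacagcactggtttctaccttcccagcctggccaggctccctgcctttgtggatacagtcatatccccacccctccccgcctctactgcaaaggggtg
Ptges: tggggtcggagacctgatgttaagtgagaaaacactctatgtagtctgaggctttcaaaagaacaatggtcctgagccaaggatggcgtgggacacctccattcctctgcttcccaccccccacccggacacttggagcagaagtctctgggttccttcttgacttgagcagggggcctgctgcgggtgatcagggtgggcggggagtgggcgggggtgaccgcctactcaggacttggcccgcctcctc
The motifs were a GATA site written AGATAA, an E-box written CACGTG, a second form of E-box written CATGTG, and the TATA box TATAAA, searched on both strands from 250 bases before to 50 after the start. The E-box CACGTG reads the same on both strands, and no matches in these windows overlapped. Over 32851 windows of that length, 11.2% held the GATA site, 7.15% the E-box CACGTG, 14.2% the E-box CATGTG and 13.6% the TATA box. Of the 8 genes with a window, 3 held a match. Hpgds had CATGTG with its leading base at -80, Ptgs2 had CACGTG at position 17 after the start, and Pla2g4a had CATGTG in 1 window, at -231 and -202, and the TATA box letters in its other window, at -200. The windows of Alox5, Ltc4s, Ptges, Ptgs1 and Ptgds held none of these letters, which says nothing about the factors.

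The matrix held 34813 barcodes with a median of 13116 gene UMIs (unique molecular identifiers, each marking 1 captured RNA molecule). After filters, 30755 cells remained, with a median of 12728 UMIs. Clusters were built without the genes described here and named from marker lists: 22220 cells (72.2%) were mast cell-like, 5494 (17.9%) fibroblast-like and 2720 (8.84%) macrophage-like, although the labels call all of them CFU-M progenitors. The 7 mast cell markers summed to 60714 CPM (UMIs of a gene for each 1e6 gene UMIs of a class) in mast cell-like cells; macrophage-like cells had 20962 CPM of them, fibroblast-like cells had 9079, and none was at 0 in any class. The 7 macrophage markers summed to 9180 CPM in macrophage-like, 86.3 in fibroblast-like and 50.9 in mast cell-like cells, and the 6 fibroblast markers to 11711, 277 and 200 CPM in fibroblast-like, macrophage-like and mast cell-like cells. Macrophage-like cells also held 1488 CPM of 4 erythroid markers, 342 CPM of 5 neutrophil markers and 2381 CPM of 5 megakaryocyte markers, of which 1 gene gave 2315; their part in the macrophage-like values below was not tested. Xist, the RNA of the inactive X chromosome, had 706 CPM in fibroblast-like, 381 in mast cell-like and 357 in macrophage-like cells, which goes against the label of male mice for at least some cells. With 1 library there is no replicate and no test: differences are given as ratios of CPM, with exact Poisson 95% intervals that cover counting error only. Shares of cells were compared after thinning each cell to 6000 UMIs, which kept 5275 fibroblast-like, 20281 mast cell-like and 2061 macrophage-like cells. Median depths before thinning were 31078, 11444 and 8779.5 UMIs.

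Pla2g4a, which releases the arachidonic acid that both routes use, was near the same level in all 3 classes. It had 53.0 CPM (52.2 to 53.9) in mast cell-like, 58.1 (55.4 to 60.9) in macrophage-like and 68.6 (67.4 to 69.8) in fibroblast-like cells. The highest class was 1.29 times the lowest. After thinning, 24.2%, 26.2% and 29.7% of the cells of these classes had a UMI of it, against 42.3%, 37.0% and 70.7% at full depth. The gene spans chr1:149829618-149961290 on the minus strand (GRCm38), and the RNA of another phospholipase, plasma platelet-activating factor acetylhydrolase (Pla2g7), is given with the rest of the pathway below.

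The cyclooxygenases differed from each other in where they were found. Ptgs1, the constitutive COX-1, at chr2:36230426-36252272 on the plus strand, had 42.5 CPM (41.8 to 43.2) in mast cell-like, 48.3 (45.8 to 50.9) in macrophage-like and 35.4 (34.5 to 36.3) in fibroblast-like cells. No pair of classes differed by 2-fold. Ptgs2, the inducible COX-2, at chr1:150100031-150108227 on the plus strand, had 0.979 CPM (0.871 to 1.10) in mast cell-like, 18.6 (17.1 to 20.3) in macrophage-like and 25.4 (24.7 to 26.2) in fibroblast-like cells. It was thus 19.0-fold (16.5 to 22.0) higher in macrophage-like and 26.0-fold (23.1 to 29.3) higher in fibroblast-like than in mast cell-like cells. So the mast cell-like cells had COX-1 RNA with almost no COX-2 RNA, while the other classes had both. After thinning, Ptgs2 was seen in 0.523% of mast cell-like, 6.21% of macrophage-like and 9.08% of fibroblast-like cells (1.15%, 8.60% and 22.7% at full depth). Its UMIs sat in few cells. The 1% of cells with the most held 39.9% of its UMIs among macrophage-like and 27.8% among fibroblast-like cells, against 9.97% and 8.51% for Ptgs1, and the highest cells had 21 and 70 UMIs.

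Among the terminal prostaglandin synthases, Hpgds was higher in the haematopoietic classes and Ptges in fibroblast-like cells. Hpgds, the haematopoietic prostaglandin D synthase (chr6:65117293-65144908, minus strand), had 180 CPM (175 to 184) in macrophage-like, 114 (113 to 115) in mast cell-like and 20.3 (19.6 to 20.9) in fibroblast-like cells. Macrophage-like cells were 1.57-fold (1.53 to 1.62) above mast cell-like cells, and these were 5.63-fold (5.44 to 5.83) above fibroblast-like cells. The share of thinned cells with a UMI followed the same order, at 55.6%, 44.8% and 10.6% (64.4%, 64.8% and 34.1% at full depth, where the depths differ). The lipocalin-type synthase Ptgds (chr2:25466709-25470046, minus strand), which makes the same product in brain and other tissues, was nearly unseen, with 51 UMIs in all cells. It had 24 UMIs in mast cell-like and 26 in fibroblast-like cells, and 0 in macrophage-like cells, where the exact Poisson upper bound was 0.127 CPM. In this library, RNA for prostaglandin D2 synthesis was therefore almost all of the Hpgds kind.

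Ptges, the microsomal prostaglandin E synthase known to be induced together with COX-2 (chr2:30889471-30929863, minus strand), had 25.4 CPM (24.7 to 26.2) in fibroblast-like, 1.82 (1.37 to 2.39) in macrophage-like and 0.613 (0.528 to 0.708) in mast cell-like cells. The fibroblast-like level was 41.4-fold (35.8 to 48.2) that of mast cell-like and 13.9-fold (10.6 to 18.6) that of macrophage-like cells. After thinning, 0.316% of mast cell-like, 1.16% of macrophage-like cells and 12.1% of fibroblast-like cells had a UMI (0.819%, 1.84% and 38.8% at full depth). Macrophage-like cells thus had Ptgs2 without a matching level of Ptges, while fibroblast-like cells had both.

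The leukotriene genes were high in mast cell-like and macrophage-like cells, but the final step differed between these classes. Alox5 (5-lipoxygenase, chr6:116410077-116461178, minus strand) had 440 CPM (438 to 442) in mast cell-like, 227 (221 to 232) in macrophage-like and 71.4 (70.2 to 72.7) in fibroblast-like cells. Its ratio of mast cell-like over macrophage-like cells was 1.94 (1.89 to 1.99), just short of 2-fold, and over fibroblast-like cells 6.16 (6.05 to 6.27). After thinning, 89.7%, 56.7% and 28.0% of the cells of these classes had a UMI of Alox5 (96.0%, 62.4% and 55.1% at full depth). Nearly every mast cell-like cell thus carried Alox5 RNA.

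Alox5ap, which encodes FLAP, the membrane protein that hands arachidonic acid to 5-lipoxygenase (chr5:149264767-149288153, plus strand), was alike in both haematopoietic classes. It had 519 CPM (516 to 521) in mast cell-like, 489 (481 to 497) in macrophage-like and 88.0 (86.6 to 89.4) in fibroblast-like cells. The mast cell-like level was 1.06 times (1.04 to 1.08) the macrophage-like and 5.89 times (5.80 to 5.99) the fibroblast-like level. Shares after thinning were 86.0%, 90.9% and 29.3% (92.4%, 93.3% and 57.1% at full depth). Ltc4s, leukotriene C4 synthase (chr11:50236461-50238616, minus strand), broke this pattern. It had 197 CPM (192 to 202) in macrophage-like, 47.7 (47.0 to 48.5) in mast cell-like and 11.2 (10.7 to 11.7) in fibroblast-like cells. Macrophage-like cells were 4.13-fold (4.004 to 4.257) above mast cell-like and 17.7-fold (16.8 to 18.6) above fibroblast-like cells. After thinning, 54.1% of macrophage-like cells had a UMI of Ltc4s, against 22.9% in the mast cell-like and 5.93% in the fibroblast-like class (63.2%, 39.9% and 21.7% at full depth). Alox5ap overlaps Gm19719 and Ltc4s overlaps Gm26542 on the other strand, and whether counting used strand is not given in the sources used here, so their reads may not be told apart from those of these neighbours.

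**Figure D1:**
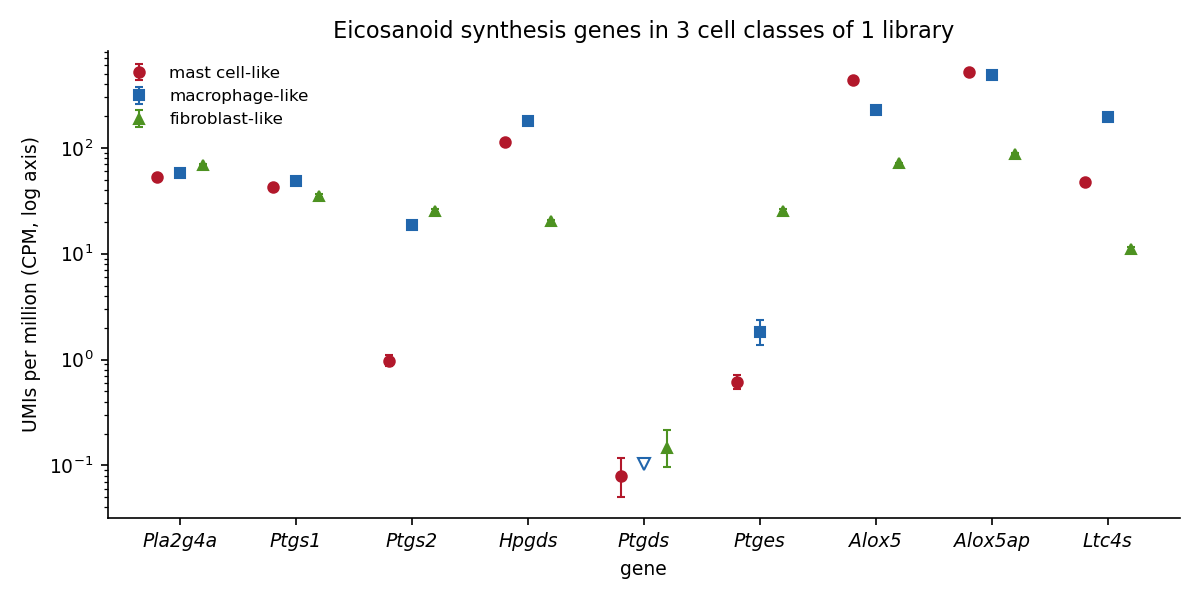
Level of each gene in CPM (log axis) in fibroblast-like, mast cell-like and macrophage-like cells, with exact Poisson 95% intervals; the open triangle is the 0.103 CPM that a count of 0 allows for Ptgds in macrophage-like cells. Alox5 was highest in mast cell-like cells, Hpgds and Ltc4s in macrophage-like cells, and Ptges in fibroblast-like cells, while Pla2g4a and Ptgs1 lay close together.

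Counted at 2-fold or more, with at least 50 UMIs over the pair of classes, 8 of the 9 genes could be compared between mast cell-like and macrophage-like cells. None of the 8 was higher in mast cell-like cells, a direction that 13.1% of 16358 genes took, and 3 (Ptgs2, Ptges and Ltc4s) were higher in macrophage-like cells, as were 19.8% of all genes. The count of 0 turned to 1 (Alox5) under 8 other settings, among them thinned cells (log2 ratio of Alox5 1.18) and each class with its own tag only (1.61); 1 of the 8 was a limit of 1.5-fold. Against fibroblast-like cells, 4 of 9 (Hpgds, Alox5, Alox5ap and Ltc4s) were higher in mast cell-like cells, where 15.7% of 18305 genes were, and 2 (Ptgs2 and Ptges) were lower, where 32.7% of genes were. The same 4 of 8 were higher in macrophage-like than in fibroblast-like cells, against 16.9% of 17332 genes, and 1 (Ptges) was lower, against 27.6%. The 4 genes shared by the latter comparisons are Hpgds and the complete leukotriene C4 set downstream of Pla2g4a. The median log2 ratio of the genes was -0.42 for mast cell-like over macrophage-like cells, where that of all genes was 0.13. It was 0.26 for mast cell-like over fibroblast-like cells (all genes -0.19) and 1.06 for macrophage-like over fibroblast-like cells (all genes -0.22). These comparisons share classes and are not independent.

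Mast cell RNA was present in the other classes, so each level was set beside that of 7 mast cell markers (Cma1, Cpa3, Tpsb2, Mcpt4, Ms4a2, Fcer1a and Hdc). These markers were at 0.309 to 0.387 of their mast cell-like level in macrophage-like cells and at 0.139 to 0.160 in fibroblast-like cells. In fibroblast-like cells, Alox5 (ratio 0.162), Alox5ap (0.170) and Hpgds (0.177) lay just above that range. RNA carried at the highest marker ratio would amount to 98.2%, 94.0% and 89.9% of their fibroblast-like levels. The fibroblast-like values of these 3 genes are thus close to what the mast cell markers showed. Macrophage RNA at the highest macrophage marker ratio would amount to 9.82% of the Alox5, 17.2% of the Alox5ap and 27.4% of the Hpgds level there. Ltc4s, at a ratio of 0.234, was further above the range: mast cell RNA at the highest marker ratio would amount to 68.3% of its level, and macrophage RNA at the highest macrophage marker ratio to 54.7%. For Ptgs1 and Pla2g4a it would amount to 19.2% and 12.3%, and for Ptgs2 and Ptges to 0.614% and 0.385%.

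In macrophage-like cells, mast cell RNA at the highest marker ratio would amount to 75.2% of the Alox5 level, 41.1% of Alox5ap, 35.4% of Pla2g4a, 34.1% of Ptgs1 and 24.6% of Hpgds. For Ltc4s it would be 9.38% and for Ptgs2 2.04%, so the macrophage-like levels of Ltc4s and Ptgs2 were far above it. Counting genes above the highest marker ratio gave 8 of 9 in macrophage-like cells, where 93.9% of all genes were, and 9 of 9 in fibroblast-like cells, where 97.9% of all genes were. Both shares are near those of all genes, so nothing is read from them. In the reverse direction, the mast cell-like level of Ptges was 0.0241 of the fibroblast-like level, inside the range of 6 fibroblast markers (0.0140 to 0.0273). Ptgs2 in mast cell-like cells was at 0.0385 of the fibroblast-like and 0.0526 of the macrophage-like level, where the macrophage markers spanned 0.00318 to 0.0190. RNA at the highest fibroblast marker ratio would amount to 70.8% of that Ptgs2 level and at the highest macrophage marker ratio to 36.2%. How doublets and free RNA share in these values was not tested.

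**Figure D2:**
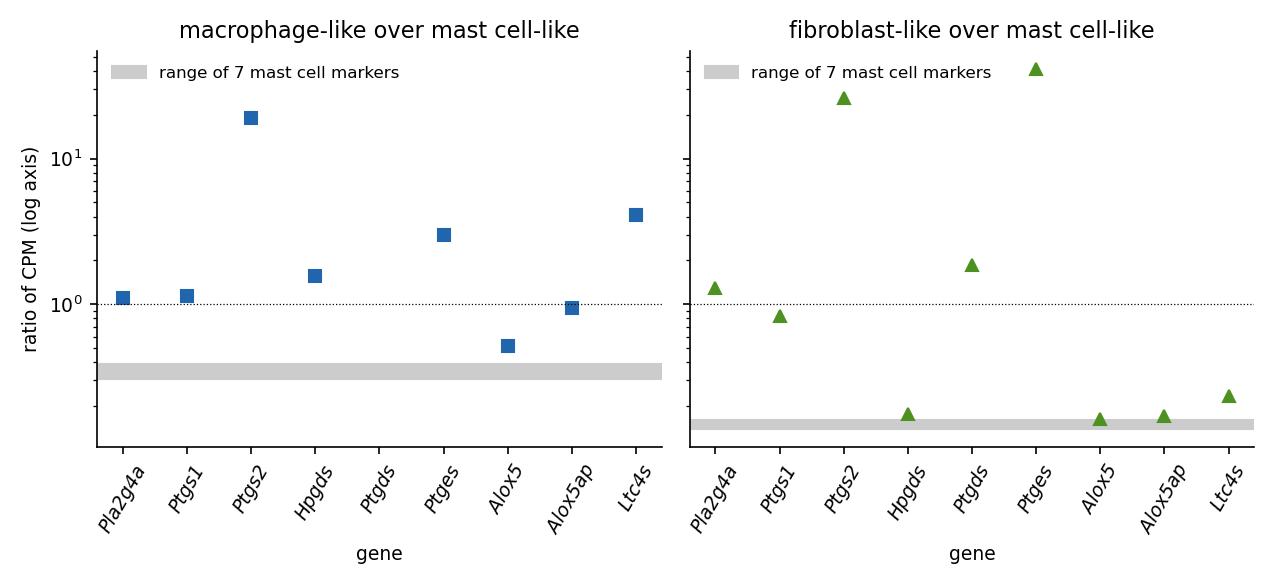
Ratio of CPM of each gene in macrophage-like (left) and fibroblast-like (right) cells over mast cell-like cells, on a log axis; the grey band spans the ratios of the 7 mast cell markers and the dotted line is a ratio of 1. In fibroblast-like cells Alox5, Alox5ap and Hpgds sit at the edge of the band of 0.139 to 0.160, whereas Ptgs2 and Ptges lie far above it; Ptgds in macrophage-like cells had 0 UMIs and has no point.

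The tags largely followed the classes: 97.4% of 16230 Cafum-tagged cells were mast cell-like, 93.2% of 2828 Matrigel-tagged cells fibroblast-like and 91.7% of 2119 Macrophages-tagged cells macrophage-like. A further 2839 cells carried more than 1 tag and 6739 none. By tag alone, Alox5 had 429 CPM in Cafum-tagged, 158 in Macrophages-tagged and 35.5 in Matrigel-tagged cells. Ltc4s had 48.1, 210 and 7.50 CPM, and Ptges 1.04, 4.004 and 29.7 CPM, in the same order of tags. Cafum-tagged over Macrophages-tagged cells, 1 of 8 genes (Alox5, at 2.71-fold, or a log2 ratio of 1.44) was higher, beside 16.7% of all genes, and 3 (Ptgs2, Ptges and Ltc4s) were lower, beside 22.9%. With stricter calls of the tags the log2 ratio of Alox5 was 0.92, under 2-fold, and the count 0. Cafum-tagged over Matrigel-tagged cells, 4 of 8 (Hpgds at 8.62-fold, Alox5 at 12.1-fold, Alox5ap at 11.0-fold and Ltc4s at 6.42-fold) were higher, beside 16.7%, and Ptgs2 and Ptges were lower, beside 32.3%. These are mostly the same cells as in the classes, so they are no separate evidence.

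Within a class, the levels of the leukotriene genes differed by tag. Among macrophage-like cells, Alox5 had 145 CPM in the 1944 with the Macrophages tag alone and 353 CPM in the 708 with more than 1 tag. Ltc4s went the other way, at 240 and 139 CPM, and Hpgds stood at 196 and 159 CPM. Among fibroblast-like cells, Alox5 had 31.2 CPM with the Matrigel tag (2636 cells), 35.8 with none (1127 cells), 134 with more than 1 (1320 cells) and 185 with the Cafum tag (364 cells). Alox5ap followed it, at 37.4, 42.2, 168 and 227 CPM, and so did Hpgds, at 11.1, 12.9, 34.3 and 42.4 CPM. Ltc4s stood at 6.97, 5.33, 19.0 and 21.4 CPM in the same order of tags. All of these genes were thus higher in fibroblast-like cells with the Cafum tag or several tags. Ptgs1, at 31.3 and 37.6 CPM there against 37.9 with the Matrigel tag, was not. Ptges was lowest in the Cafum-tagged fibroblast-like cells, at 10.1 CPM, against 30.3 with the Matrigel tag, 23.8 with more than 1 and 19.9 with none. Ptgs2 ranged from 21.1 CPM with more than 1 tag to 32.1 with none, and Pla2g4a from 63.0 to 81.0 CPM in the same groups. Median depth among macrophage-like cells was 7646.5 UMIs with the Macrophages tag and 14424.5 with more than 1 tag. The part of mast cell RNA and of doublets in these differences by tag was not tested.

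With each class limited to its own tag, the mast cell markers were at 0.152 to 0.207 of the mast cell-like level in macrophage-like and at 0.0589 to 0.0784 in fibroblast-like cells. Alox5 (0.0707) and Alox5ap (0.0723) of the fibroblast-like cells then lay inside the marker range, and Hpgds (0.0980) and Ltc4s (0.141) above it. The part of macrophage RNA in these Hpgds and Ltc4s levels was not tested. In macrophage-like cells Alox5 stayed above the range, at 0.328 of the mast cell-like level, and its log2 ratio of mast cell-like over macrophage-like cells grew from 0.96 to 1.61, past 2-fold. Ltc4s, at 4.84 times the mast cell-like level, and Hpgds, at 1.73 times, remained higher in macrophage-like cells. Mast cell-like cells differed little by tag: Alox5 had 441 CPM in the 15807 with the Cafum tag and 434 in the 5467 with none, Alox5ap 518 and 528, and Ltc4s 49.5 and 40.0 CPM.

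**Figure D3:**
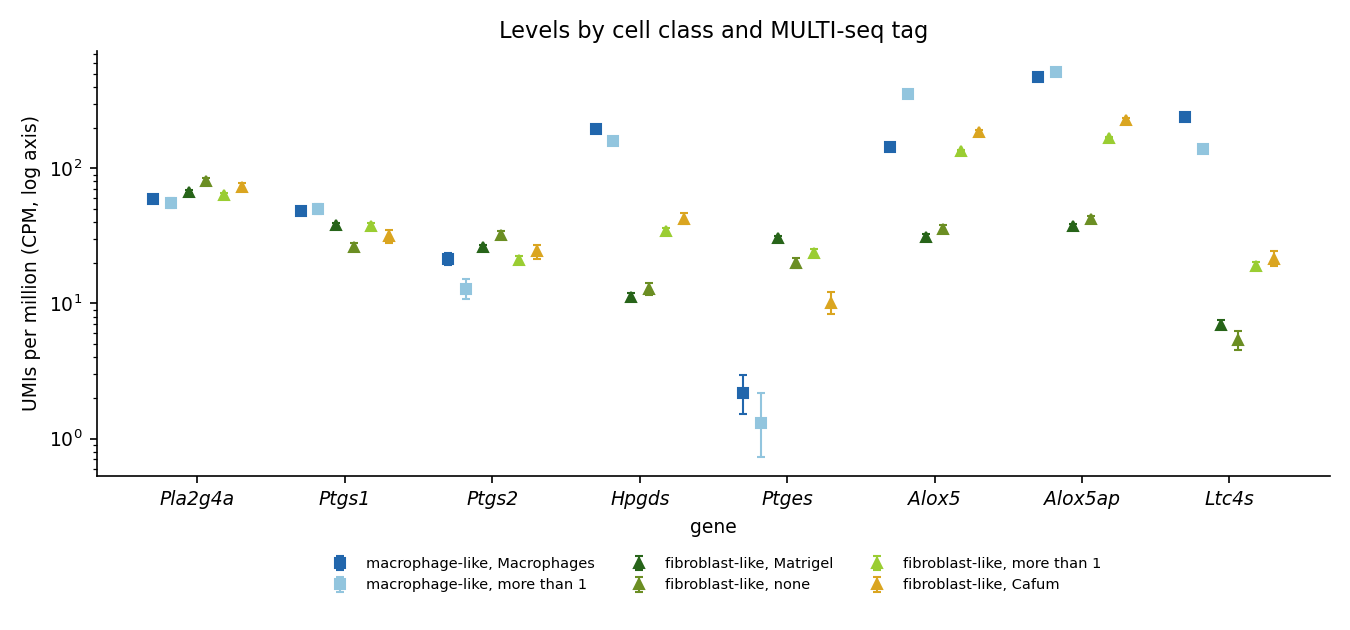
Level of each gene in CPM (log axis) in macrophage-like and fibroblast-like cells split by MULTI-seq tag, with exact Poisson 95% intervals. Alox5 in macrophage-like cells was 145 CPM with the Macrophages tag and 353 with more than 1 tag, and in fibroblast-like cells it spanned 31.2 to 185 CPM, while Pla2g4a lay between 55.4 and 81.0 CPM in the groups drawn; the 54 macrophage-like cells with no tag are left out.

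Mast cell-like cells formed 7 clusters, called here by leading genes, and the eicosanoid genes were not used to build them. Alox5 was highest in the cluster led by Gm4847 and Nrgn, at 600 CPM (593 to 607), and next in the cluster led by Ighv1-23 and Krt4, at 494 CPM. The other 5 clusters lay between 359 and 444 CPM. Both of these clusters also had Mrgprb1, a receptor gene of connective tissue-type mast cells, among their leading genes. Hpgds was lowest in the same clusters, at 82.2 CPM (79.7 to 84.9) and 77.2 CPM (74.6 to 79.8), against 114 to 142 CPM in the other 5. So the 2 mast cell-like clusters with the most 5-lipoxygenase RNA had the least prostaglandin D synthase RNA.

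Ptgs1 stood out in the cluster led by Gm12648 (3551 cells), at 10.5 CPM (9.4 to 11.6), against 39.7 to 55.3 CPM in the other 6 mast cell-like clusters. After thinning, 5.9% of the cells of that cluster had a UMI of Ptgs1, against 17.7% to 24.4% elsewhere. Hpgds, at 133 CPM, and Alox5ap, at 644 CPM, were not low there. Alox5ap was low in the cycling clusters, at 331 CPM (325 to 337) in that led by the mitotic genes Cenpa and Ccnb2 and 346 CPM (340 to 351) in that led by the S-phase histone gene Hist1h3c, against 541 to 668 CPM in the other 5. Alox5, at 359 and 360 CPM, was also lowest in these clusters, but the Gm20465 and Ctsg cluster, at 377 CPM, was close. Ltc4s was highest in that Ctsg cluster, at 68.0 CPM (65.2 to 70.9), and in the histone cluster, at 61.1 CPM, and lowest in the Gm12648 and Gm4847 clusters, at 32.3 and 31.8 CPM. Even the highest of these was under the 197 CPM of macrophage-like cells. Pla2g4a ran from 33.8 CPM in the Ighv1-23 cluster to 67.1 CPM in the histone cluster. Median depth differed between these clusters, from 8148 to 23596 UMIs, and was highest in the cycling ones; its part in these differences was not tested.

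**Figure D4:**
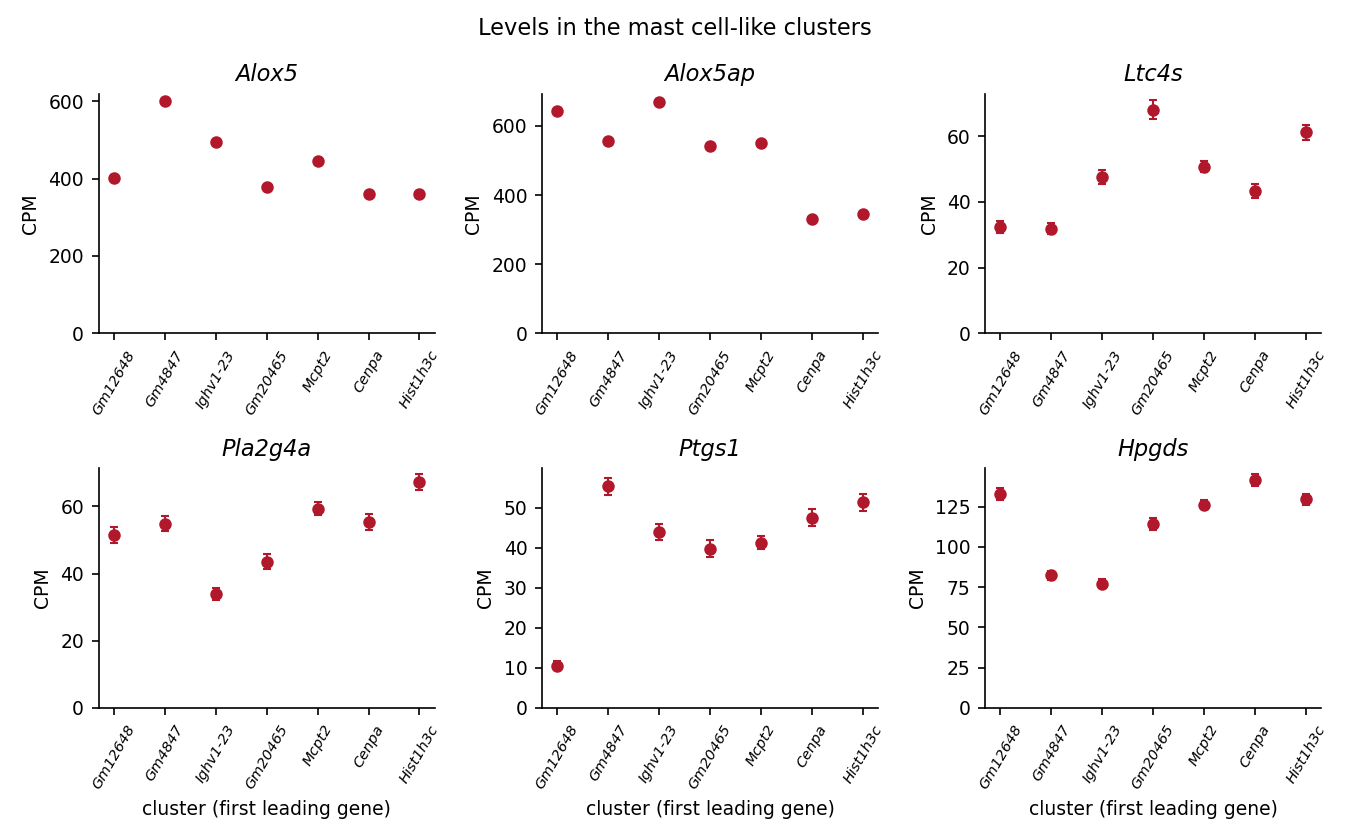
Level of 6 genes in CPM (linear axes from 0) in the 7 mast cell-like clusters, each named by its leading gene, with exact Poisson 95% intervals. Ptgs1 was 10.5 CPM in the Gm12648 cluster and at least 39.7 elsewhere, Alox5 peaked at 600 CPM in the Gm4847 cluster, and Alox5ap was at 346 CPM or less in the Cenpa and Hist1h3c clusters and at 541 or more in the others.

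At a finer clustering (18 clusters), the fibroblast-like cells split, and prostaglandin E2 genes split with them. Cells led by Crabp1 and Dlk1 (1051 cells) had the most Ptges, at 46.2 CPM, with Ptgs1 at 50.0 and Ptgs2 at 13.7 CPM. Cells led by Chl1, with C7 among the leading genes (3643 cells), had less Ptges, at 18.0 CPM, and less Ptgs1, at 29.4 CPM, but more Ptgs2, at 30.3 CPM, and Pla2g4a, at 77.2 CPM against 50.9. Between these clusters Ptges and Ptgs2 thus ran in opposite directions, whereas per cell, among all thinned fibroblast-like cells, 72 had both against 58.0 from the product of the shares, and 8 against 2.73 at 2 UMIs or more of each. A cluster led by Cfd and Adipoq (702 cells, unnamed at this resolution) had 19.4 CPM of Ptges, 16.6 of Ptgs2 and 36.2 of Pla2g4a. It also had 153 CPM of Alox5 and 190 of Alox5ap, above the 59.6 and 77.4 CPM of the Crabp1 cells. Its median depth was 11484.5 UMIs, against 40170 in the Crabp1 cells. The part of mast cell RNA in these Alox5 and Alox5ap levels was not tested. A cluster of 69 cells led by Hmcn1, also unnamed at this resolution, held Ptgs1 at 83.3 CPM and Ptgds at 7.98 CPM, the highest Ptgds of any of these clusters. That Ptgds level rests on few UMIs, as the cluster had 1753488 gene UMIs and all cells together 51 of Ptgds. A cluster of 95 cells led by Kctd16 had Pla2g4a at 149 CPM, on a median of 6100 UMIs per cell.

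Whether the steps of a route were seen in the same cells was described in thinned cells. All 3 leukotriene C4 genes after Pla2g4a (Alox5, Alox5ap and Ltc4s) were seen together in 28.9% (26.9% to 30.9%) of macrophage-like, 18.0% (17.4% to 18.5%) of mast cell-like and 1.54% (1.22% to 1.90%) of fibroblast-like cells, with exact Clopper-Pearson 95% intervals. With Pla2g4a added, the shares were 7.13%, 4.21% and 0.360%. In fibroblast-like cells 81 cells had all 3, against 25.7 from the product of the separate shares, and Alox5 and Alox5ap came together 1.83 times as often as their product, where their shares allow at most 3.41 times. In macrophage-like cells Alox5ap is seen in most cells, and in mast cell-like cells both are, Alox5 in the most. The same pair could thus not exceed 1.10 and 1.11 times its product in these classes, and nothing is read from its joint count there. The part of mast cell RNA in the fibroblast-like count was not tested.

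Pla2g4a with either cyclooxygenase and Hpgds, the prostaglandin D2 set, was seen in 3.93% (3.13% to 4.86%) of macrophage-like, 2.32% (2.12% to 2.54%) of mast cell-like and 0.682% of the fibroblast-like cells. The set with Ptges in place of Hpgds was seen in 1.23% (0.952% to 1.57%) of fibroblast-like cells, in 0.0247% of mast cell-like cells and in 0.0970% of macrophage-like cells. By these shares, the prostaglandin E2 set with Ptges was mainly fibroblast-like, and the leukotriene C4 set macrophage-like and mast cell-like. The Ptges set was seen in 65 fibroblast-like cells, against 47.3 from the product of the shares. Alox5, Alox5ap and Ltc4s came together in 595 macrophage-like and 3643 mast cell-like cells, against 575 and 3584 from the products. The latter joint counts lay near what the single genes give, and the part of mast cell RNA in them was not tested. In macrophage-like cells, 52 of the 128 cells with Ptgs2 had Alox5 and 50 had Ltc4s, against 72.6 and 69.2 from the products. A median of 3 of the 9 genes was seen per mast cell-like and per macrophage-like cell and 1 per fibroblast-like cell. At 6000 UMIs per cell, a gene that is not seen may still be expressed.

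The wider pathway list, chosen by role, had 52 other genes, all in the matrix, and 26 of them reached 10 CPM in a class. Of these 26, 11 were highest in macrophage-like, 10 in fibroblast-like and 5 in mast cell-like cells. By role, 3 of 5 other phospholipases, 3 of 6 breakdown and transport genes and 2 of 4 receptors were highest in macrophage-like cells. The same held for 2 of 5 other prostanoid synthases and 1 of 6 other lipoxygenases and leukotriene enzymes. How often each class is highest among all genes was not counted, so nothing is read from these counts. Hpgd, the dehydrogenase that inactivates prostaglandins, had 241 CPM in macrophage-like cells, against 2.61 in fibroblast-like and 1.10 in mast cell-like cells. Ptger4, a prostaglandin E2 receptor, had 163 CPM against 7.57 and 14.0, and Cysltr1, a receptor for cysteinyl leukotrienes, 45.8 CPM against 0.424 and 0.316. Thromboxane synthase, Tbxas1, had 240 CPM in macrophage-like, 133 in mast cell-like and 22.0 in fibroblast-like cells. The secreted phospholipase Pla2g2d had 54.1 CPM in macrophage-like cells and under 2 CPM in the others.

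Mast cell-like cells were highest for 5 of the 26 other pathway genes that reached 10 CPM. Pla2g7, which breaks down platelet-activating factor, had 399 CPM in mast cell-like cells; macrophage-like cells had 273 and fibroblast-like cells 59.5 CPM. Ptger3, another prostaglandin E2 receptor, had 86.3, 34.0 and 15.1 CPM, and Lta4h, which makes leukotriene B4, 45.7, 30.4 and 35.7 CPM in the same order. The other pathway genes were not set singly beside the mast cell markers. The part of mast cell RNA in their macrophage-like and fibroblast-like levels was thus not tested. Fibroblast-like cells had the most RNA of 10 genes of several roles. Prostacyclin synthase, Ptgis, had 44.7 CPM there, against 0.860 in macrophage-like and 0.695 in mast cell-like cells. The prostaglandin transporter Slco2a1 had 85.2 CPM against 1.82 and 1.39. Dpep1, a dipeptidase that acts on leukotriene D4, had 171 CPM against 4.78 and 3.21. Ptges3, the cytosolic prostaglandin E synthase also known as the co-chaperone p23, was near equal, at 192, 184 and 167 CPM in fibroblast-like, macrophage-like and mast cell-like cells.

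**Figure D5:**
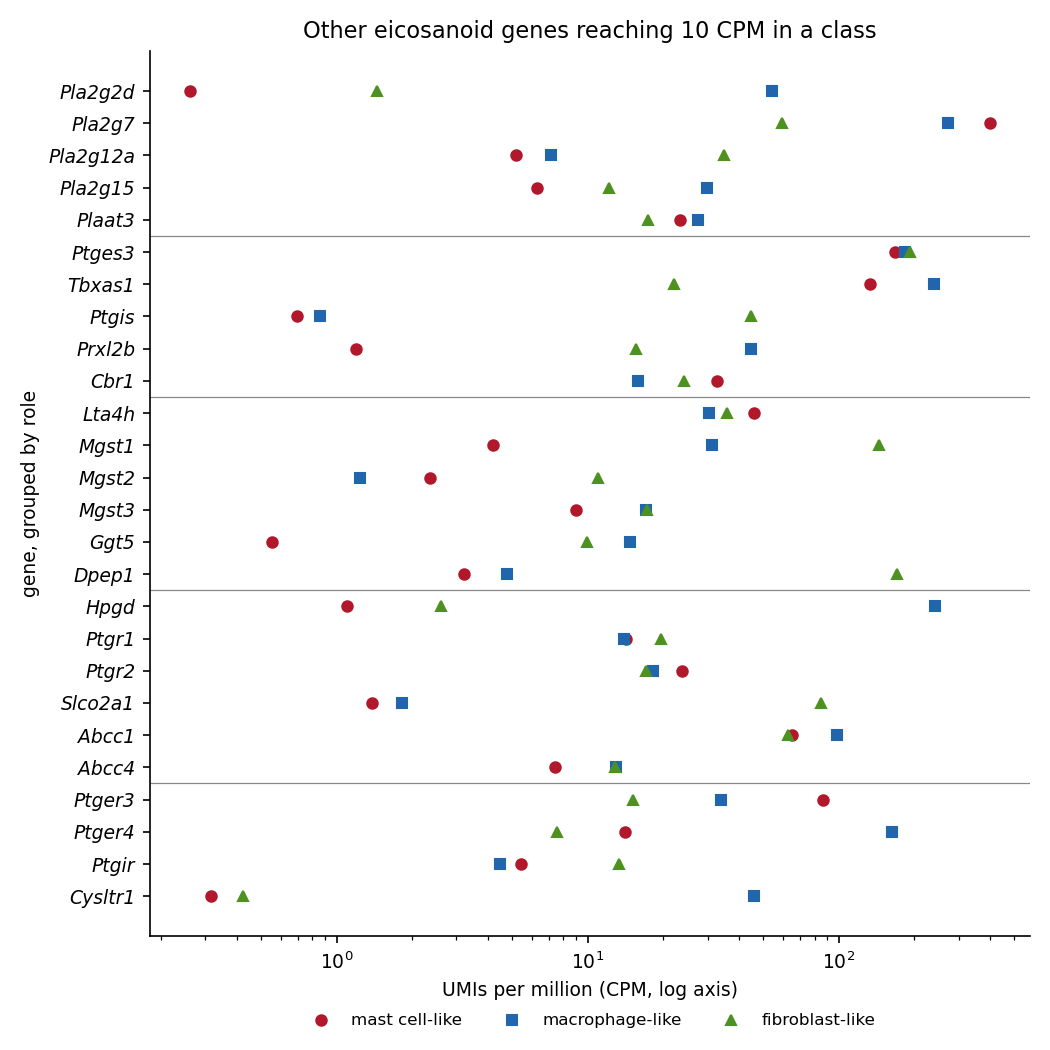
Level in CPM (log axis) of the 26 other pathway genes that reached 10 CPM in a class, by role from top to bottom: other phospholipases, prostanoid synthases, leukotriene enzymes, breakdown and transport, receptors. Hpgd, Ptger4 and Cysltr1 were far higher in macrophage-like cells, and Ptgis, Slco2a1 and Dpep1 in fibroblast-like cells.

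Across the 10 clusters of at least 100 cells, the genes whose log2(CPM + 1) ran most like each enzyme were taken from 5118 genes that reached 50 CPM in a cluster. The clusters share 1 library, and 7 of them are mast cell-like. The rest are a fibroblast-like, a macrophage-like and an unnamed cluster of low depth. Each of these classes thus enters r as 1 cluster. For Alox5 the most alike was Il2rg (Pearson's r = 0.995), then Slc9a3r1 (0.990) and Csf2rb (0.986). For Alox5ap it was Pdxk (0.967), for Ltc4s Cfp (0.975), for Hpgds Ptpre (0.973), for Ptgs2 Parp8 (0.992) and for Ptges Prg4 (0.992). Pla2g4a and Ptgs1 had less close partners, Faf1 (0.888) and Degs1 (0.838). Among the enzymes themselves, Alox5 and Alox5ap had an r of 0.85, and Ptges had -0.92 with Alox5 and -0.93 with Alox5ap.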

How the data were processed

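The authors deposited raw UMI counts per gene and barcode of 1 expression library, with the MULTI-seq tags as 3 further features that held 21.9% of all UMIs and were kept out of gene totals. Per the submitters' processing notes, Cell Ranger 7.0.0, STAR, R 4.1.3 and Seurat 4.1.1 and the build mm10 were used. The counts are not normalized, and counting of introns and use of strand are not given in the sources used here. The library of tags listed in the labels was not used here.

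Barcodes passed (33964) with 500 genes or more, 1000 UMIs or more and no more than 10% mitochondrial UMIs. Scrublet (run through scanpy 1.11.5; expected rate 27.9%) called 3245 barcodes (9.32%) as doublets, of which 3209 were removed here; doublets under its threshold remain. Cells were clustered on log counts with 2000 variable genes, 30 components, 15 neighbours and Leiden resolution 0.5 (igraph 0.11.9, seed 0), without 132 listed symbols, mitochondrial and ribosomal genes. No annotation by the authors was used, so names are rebuilt. A cluster was called X-like where at least 3 markers and over 50% of a list reached 50 CPM and 4 times their lowest CPM among the clusters with 100 or more cells. A cluster that passed was still left unnamed where another list held more of its 10 leading genes. It was also left unnamed where 3 times its median depth was under the median of all cells and its list held no leading gene. At the finer clustering, the Cfd and Adipoq cells and the Hmcn1 cells passed 6 of 6 fibroblast markers but fell under the former rule. The 702 Cfd and Adipoq cells are counted as fibroblast-like. Thinning to 6000 UMIs left out 2980 cells. A Matrigel or Macrophages tag was called at 2 times its median, and Cafum at 1.4 times its median in cells high for another tag.

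CPM is the summed count of a group over its gene UMIs. The floor for a count of 0 was 3 counts. Named genes were the 9 enzymes, the other pathway genes that reached 10 CPM in a class, and the genes most alike to each enzyme across clusters. The ratio calculation was tested on simulated counts. Positions come from GENCODE M21 (GRCm38). The genes, the lists and the rules were chosen with earlier results of these data known.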

Additional observations from a re-analysis of the deposited data

How the results depend on the processing

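The results were recomputed under 15 other settings, of which the limits on doublet score, on cells with more than 1 tag and on each class's own tag were chosen after seeing the data. Of 403 ratios between groups, 402 kept their sign; the exception was Ptgds between mast cell-like and fibroblast-like cells at Leiden resolution 1, on few UMIs. Of 234 ratios past 2-fold, 233 were still past it in the same direction. Of 144 recomputed counts of genes, 134 were within 1.5 times the reported count. Alox5 made the difference in the others but for 1. The count of genes at least 2-fold higher in mast cell-like than in macrophage-like cells went from 0 to 1 under several settings. These were all deposited barcodes with called doublets removed, the mean over cells of the share of UMIs, and counts of thinned cells. Others were a limit of 1.5-fold, the 7 mast cell markers left out of the total, and no cells of a doublet score above 0.5. The last were no cells called for more than 1 tag and each class with its own tag only. The log2 ratio of Alox5 between these classes ran from 0.63 with called doublets kept to 1.61 with own tags only. Class names changed too. With all deposited barcodes, 5694 cells with 7 of 7 mast cell markers were unnamed, as their leading genes were of another list. So were 3682 cells at the limit of 5% mitochondrial UMIs. With called doublets kept, 1757 cells had too few markers. With stricter calls of the tags, the count higher in Cafum-tagged than in Macrophages-tagged cells went from 1 to 0, as the log2 ratio of Alox5 went from 1.44 to 0.92. With the highest marker ratio raised by a factor of 1.5, the count above the mast cell RNA background in fibroblast-like cells went from 9 to 5. The causes were not tested. No paired analysis was possible because the expression library has no replicate, and no library could be left out. Some values rest on few UMIs: Ptgds, Ptges and Ptgs2 had 24, 186 and 297 in mast cell-like cells. In macrophage-like cells Ptges had 53 UMIs and Ptgds 0.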
